A study of Mus musculus with 2343 samples.

Results

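The bulk libraries of reporter-positive medullary thymic epithelial cells (ZsGpos, 4 libraries) were set against those of reporter-negative cells (ZsGneg, 4 libraries) of the mouse strain Eedflfl::ZsGreen::beta5tCre. They are 8 of the 2343 samples of the series, chosen by their titles and by the ZsGreen status in their labels. Both groups carried the same alleles: floxed Eed, the ZsGreen reporter and a Cre driven by beta5t, the product of Psmb11, a proteasome subunit of cortical thymic epithelial cells. The cells were mTEChi, that is medullary cells sorted for high MHC class II, and differed by label only in whether ZsGreen was on. Ages are not stated, and the labels do not say whether the libraries of a group, or a ZsGpos and a ZsGneg library of the same number, came from separate animals. Each library held about 1000 sorted cells, amplified as polyadenylated RNA with the SMART-seq2 protocol. Libraries of wild-type mTEChi cells (WT, strain Eedflfl::ZsGreen, no Cre driver named) were measured alongside, and 9 of them, summed to 3 units, are given here as a reference level.

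Eed is a subunit of Polycomb repressive complex 2 (PRC2), which places the repressive mark H3K27me3 on histones and so keeps developmental regulators silent in cells that do not use them. Medullary epithelial cells present self-antigens to developing T cells: Aire and Fezf2 let them transcribe genes of many peripheral tissues, and MHC class II with its invariant chain and loading factors carries the peptides to the surface. A Cre driven by beta5t acts in progenitors that once expressed Psmb11, so the reporter marks cells by their history as well as their present state. The deposited counts are per gene and do not separate floxed exons from the others, so they do not show in which cells Eed was deleted.

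The called genes included many of housekeeping complexes and a smaller number of antigen presentation, self-antigen and basal epithelial genes. Genes of the proteasome core, the respiratory chain and cytosolic ribosomes were lower in ZsGpos libraries, with the largest shares of called members among the lists described here apart from the 2 mitochondrial rRNAs. In ZsGpos libraries the class II alpha chain H2-Aa, the invariant chain Cd74, the peptide loading subunit H2-DMa and the gut antigens Reg3g, Tff3 and Lgals2 were lower, and the basal keratins Krt5 and Krt15, the signalling molecule Wnt4, the Notch target Hes1 and the neuronal tubulin regulator Stmn2 were higher. In the single cells described further on, H2-DMa, Reg3g and Tff3 were higher in summed ZsGpos cells. The other genes of this list kept their bulk direction there. H2-Ab1 and Krt14, the partner chains of H2-Aa and Krt5, were not called. With edgeR's quasi-likelihood test, 2.66% of 18931 genes tested passed an adjusted p of 0.05, 0.623% higher in ZsGpos and 2.04% lower. The values of the 4 ZsGpos and the 4 ZsGneg libraries did not overlap for 96% of the called genes, and for 10.7% of all genes tested. DESeq2 called 2344 genes of 34551 with a count, with 1298 higher and 1046 lower, so that the share of calls on the higher side was 55.4% there against 23.4% in edgeR.

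Depth was similar: ZsGpos libraries held 10519116 to 12791664 gene counts, those of ZsGneg 11611119 to 14886657. Genes with a count numbered 17269 to 21311 in ZsGpos libraries and 14901 to 18519 in those of ZsGneg. Other library measures differed with the group. Reads that fell in no gene made up 31.2% to 35.9% of all reads in ZsGpos libraries, against 18.9% to 24% in those of ZsGneg; WT units held 25.9% to 32.3%. Mitochondrial genes took 9.15% to 14.9% of ZsGpos gene counts and 5.54% to 7.83% of those of ZsGneg, and genes of cytosolic ribosomal proteins 3.16% to 3.75% and 5.17% to 7.35%. ZsGpos and ZsGneg libraries do not overlap in any of these 3 measures. When the share of reads in no gene entered the fit as a covariate, no gene was called (826 had an unadjusted p under 0.05), and with the mitochondrial share 1 gene was called. Since each measure separates the groups completely, the measure and the reporter status cannot be told apart in these libraries, and this holds for every call below.

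**Figure D1:**
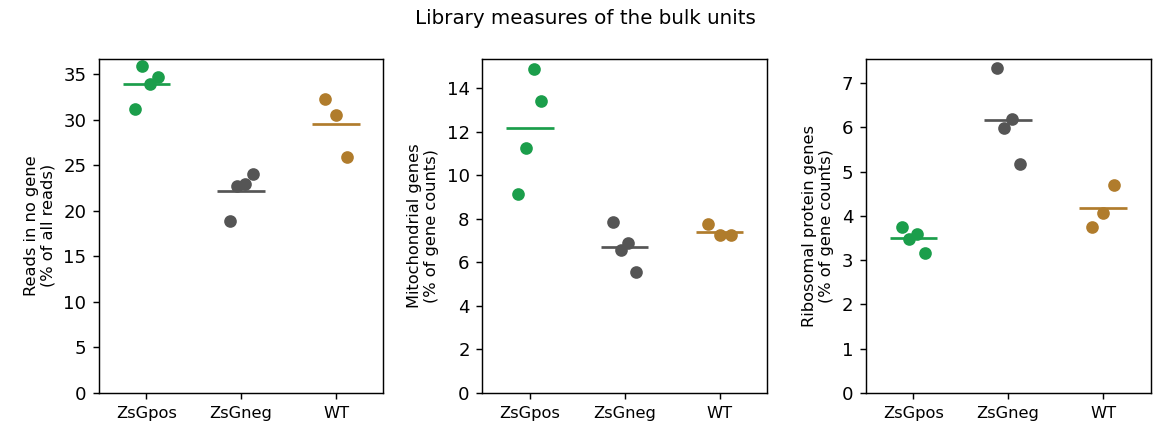
Share of reads in no gene (percent of all reads), of mitochondrial genes and of ribosomal protein genes (percent of gene counts) in the 4 ZsGpos libraries, 4 ZsGneg libraries and 3 WT units; each point is 1 unit and each bar the group mean. The ZsGpos points (31.2% to 35.9% in the first panel) lie above all ZsGneg points in the first 2 panels and below them in the third.

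Epithelial identity was present in both groups. The summed level of Epcam, Cdh1, Krt8 and Krt5 lay between 1962 and 2421 CPM (a count scaled to a library total of 1000000) in ZsGpos, above the 1133 to 1634 CPM of ZsGneg. Of these 4 genes Krt5 alone was called (log2 1.35), with Cdh1 at 0.57, Krt8 at 0.14 and Epcam at -0.01. Markers of mature mTECs (Aire, Fezf2, Cd80, Cd40, H2-Aa, Cd74 and Tnfrsf11a) summed to 14535 to 15564 CPM in ZsGpos and 28547 to 48352 in ZsGneg, and all 7 had counts in both groups. The class II genes Cd74 and H2-Aa held most of these sums. Beside them Cd40 alone was called (log2 -0.92). Cd80 was at -1.96, Fezf2 at -0.28, Tnfrsf11a at 0.13 and Aire at 0.79. Markers of other cells were low: those of thymocytes (7 genes) summed to 47.8 to 148.8 CPM in ZsGpos and 42.4 to 67.3 in ZsGneg, of B cells (3) to 0.851 to 42.4 and 13.5 to 19.2, of myeloid and dendritic cells (7) to 87.7 to 177.6 and 52 to 194.2, of fibroblasts (6) to 212.9 to 302.3 and 130 to 387.7, of endothelial cells (4) to 7.74 to 41.4 and 0 to 12.4, and of erythroid cells (4) to 0 to 16.9 and 10.3 to 111.7. None of the tested markers of these other cells passed the test. Xist was at 644 CPM in ZsGpos 4 and 264.2 CPM in ZsGneg 4 and between 0 and 14.9 CPM in the other 6 libraries, while Ddx3y, a Y-linked gene, was at 0 in these 2 libraries and at 49.97 to 178.4 CPM in the others. The libraries numbered 04 thus differ from the other 6 in sex-linked genes, and without them in both groups 1.2% of 18160 genes were called, of which 16.1% were higher. Of the named genes that kept their calls without each single unit, 8 lost them without these 2 libraries: Topaz1 (adjusted p = 0.0631), H2-Oa (0.0581), Ctss (0.0702), Psme2 (0.0706), Dst (0.0857), Hes1 (0.0857), Hspa1a (0.07) and Cyp26a1 (0.07). The WT units differed among themselves too. In their order Xist was at 432.9, 311.25 and 0.748 CPM and Ddx3y at 0.0575, 0.0266 and 143.1 CPM.

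Eed itself (chromosome 7, 89954654 to 89980976, GRCm38) had 53.9, 19.2, 90.1 and 16.7 CPM in ZsGpos and 77.1, 49, 101.1 and 53.4 CPM in ZsGneg libraries. The groups overlapped, and the log2 fold change of -0.64 (SE 0.52, adjusted p = 0.611) was not past the threshold. It lay between -1.23 (without ZsGpos 3) and -0.37 (without ZsGpos 4) when 1 unit was left out; it was -0.39 without ZsGpos 2 and -0.41 without ZsGneg 3. In the single cells described further on, Eed was at 25.1 CPM (counting interval 24 to 26.3) in ZsGpos and 46.3 CPM (44.9 to 47.8) in ZsGneg cells and lower on all 3 plates, with no test. None of the 9 tested PRC2 subunits was called. Ezh2, the main methyltransferase subunit, was at 66.8 ± 20.5 CPM in ZsGpos and 67.7 ± 23.1 in ZsGneg (SD, n = 4 each; adjusted p = 0.99), its relative Ezh1 at 40 ± 12.6 and 33.4 ± 25.4 (adjusted p = 0.944), and the scaffold subunit Suz12 at 65.5 ± 31 and 33.5 ± 15 (adjusted p = 0.277). The median log2 fold change of PRC2 subunits was -0.02, against 0.14 over all genes tested.

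Among MHC class II presentation genes 6 of 20 tested were lower, none higher, where 2.04% of all genes were lower, and the median log2 fold change of the list was -0.46. H2-Aa, the alpha chain of the I-A molecule (chromosome 17, 34282744 to 34287823), had 3360, 3345, 3611 and 3487 CPM in ZsGpos and 8298, 6968, 8541 and 10191 CPM in ZsGneg libraries. Every ZsGpos library was below every ZsGneg library, and the WT units, at 5592, 6719 and 6701 CPM, lay between. The log2 fold change was -1.30 (SE 0.12, adjusted p = 0.000185). For Cd74, the invariant chain that holds the groove until loading, the values were 11196, 11066, 9877 and 9762 CPM in ZsGpos and 24164, 20390, 33671 and 36831 CPM in ZsGneg (log2 -1.46, SE 0.17, adjusted p = 0.000662). H2-DMa is a subunit of H2-DM, which exchanges the invariant chain fragment for peptide. It had 75.3, 91.8, 84.2 and 121.6 CPM against 282.4, 308.3, 448.3 and 442.9 CPM (log2 -1.99, SE 0.25, adjusted p = 0.0011). For these genes too no ZsGpos value reached the lowest ZsGneg value. H2-Oa, a subunit of the modulator of H2-DM, averaged 106.3 ± 36.3 CPM in ZsGpos and 351.96 ± 148.7 in ZsGneg (log2 -1.73, adjusted p = 0.0112). The invariant chain protease Ctss fell from 570 ± 153.4 to 270 ± 15.6 CPM (adjusted p = 0.00941), and the thiol reductase Ifi30 from 350 ± 30.2 to 206.7 ± 29.6 CPM (adjusted p = 0.0304). Ifi30 lost its call when ZsGpos 1, 2 or 4, ZsGneg 3 or 4 or any WT unit was left out (adjusted p 0.0621 to 0.0858), and the others kept theirs without each of the 11 units in turn. Without the libraries numbered 04 in both groups, H2-Oa (0.0581) and Ctss (0.0702) lost theirs too.

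Not all class II genes moved in this way. H2-Ab1, the beta chain that pairs with H2-Aa (chromosome 17, 34263227 to 34269418), had 2975, 2439, 2601 and 3142 CPM in ZsGpos and 2710, 3085, 2577 and 2701 CPM in ZsGneg libraries. The 2 ranges overlapped, with a log2 fold change of 0.01 (SE 0.12, adjusted p = 0.981), whose sign was negative without the libraries numbered 04 (-0.06). H2-Eb1, the beta chain of I-E, had 1857 ± 190.6 against 2446 ± 109.2 CPM (log2 -0.40, adjusted p = 0.0929), with no overlap of the groups. Ciita, the transactivator that switches on class II genes, was at 120 ± 15.8 and 110.9 ± 57.4 CPM (adjusted p = 0.93). The beta chains of H2-DM, H2-DMb1 (log2 -0.28, adjusted p = 0.797) and H2-DMb2 (-0.55, adjusted p = 0.178), were not called. Nor was H2-Ob, the partner of H2-Oa (-0.34, adjusted p = 0.932). The difference between H2-Aa and H2-Ab1 in their response was not itself tested.

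**Figure D2:**
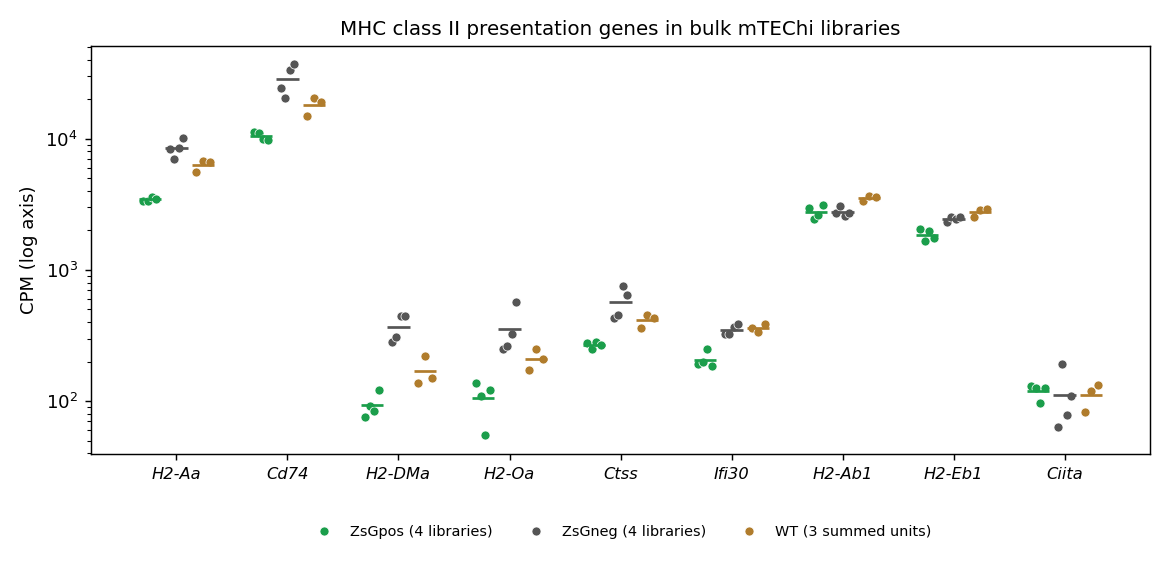
CPM on a log axis of MHC class II presentation genes in the 4 ZsGpos libraries, 4 ZsGneg libraries and 3 WT units; each point is 1 unit and each bar the group mean. H2-Aa, Cd74, H2-DMa, H2-Oa, Ctss and Ifi30 show separate ZsGpos and ZsGneg points, and H2-Ab1 (2790 and 2768 CPM on average) and Ciita overlap.

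Promoters of class II genes share an inverted CCAAT element, the Y box, that NF-Y binds beside RFX. The sequence CTGATTGG was searched on either strand in the 250 bases before the transcription start of each gene in RefSeq (GRCm38.p6), as a reference for the genes above: 14 of the 21 listed genes were matched there, 4 of the 14 hold it (H2-Aa, H2-Oa, H2-Eb1 and H2-Eb2), and 3.83% of all 32851 windows do. The 150 bases that end just before the start are shown 5′ to 3′ on the gene's strand for H2-Aa and H2-Oa, which were lower, and for H2-Eb1, which was not called. The motif is in capitals and begins 51, 46 and 62 bases before the start.
H2-Aa, chr17:34287824-34287973, minus strand: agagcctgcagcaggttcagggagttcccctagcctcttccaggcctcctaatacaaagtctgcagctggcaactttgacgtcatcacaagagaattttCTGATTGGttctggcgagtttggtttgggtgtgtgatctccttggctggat
H2-Oa, chr17:34092229-34092378, plus strand: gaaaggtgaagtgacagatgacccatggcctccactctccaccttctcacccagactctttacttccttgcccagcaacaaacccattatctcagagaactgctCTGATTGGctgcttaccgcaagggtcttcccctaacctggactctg
H2-Eb1, chr17:34305717-34305866, plus strand: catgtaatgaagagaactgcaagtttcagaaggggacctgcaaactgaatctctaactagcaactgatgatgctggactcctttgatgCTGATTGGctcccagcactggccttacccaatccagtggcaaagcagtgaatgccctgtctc
The called and the uncalled gene thus both hold these letters, and H2-DMa, Ctss and Ifi30, which were lower, do not have them in this window.

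Genes of MHC class I presentation and the immunoproteasome were lower in 5 of 23 cases, where 2.04% of all genes were lower. None was higher, and the median log2 fold change was -0.08. Values were positive for 10 members and negative for 13, with 4 higher and 5 lower without overlap. The classical heavy chains H2-K1 (log2 0.42, adjusted p = 0.0806) and H2-D1 (0.08) were not called. Nor were the immunoproteasome subunits Psmb8 (0.03), Psmb9 (-0.16) and Psmb10 (-1.09, adjusted p = 0.0796). B2m, the light chain of class I, averaged 12865 ± 738 CPM in ZsGpos and 17652 ± 1764 in ZsGneg (log2 -0.46, SE 0.10, adjusted p = 0.0196), the non-classical heavy chain H2-M3 from 190 ± 76.8 to 52.9 ± 17 CPM (adjusted p = 0.00993), and the chaperone Canx from 2070 ± 627 to 1094 ± 123.9 CPM (adjusted p = 0.0225). The proteasome activator subunits Psme1 (315.4 ± 79.8 to 169.2 ± 14.2 CPM, adjusted p = 0.0304) and Psme2 (777 ± 210 to 326.4 ± 66.6 CPM, adjusted p = 0.00851) fell together. H2-M3 and Psme2 kept their calls without each unit, but Psme2 lost its call without the libraries numbered 04 (0.0706). B2m lost its call without ZsGpos 1, 2 or 4 or ZsGneg 3 or 4 (adjusted p 0.0551 to 0.0827), Canx without ZsGpos 2, 3 or 4 or ZsGneg 3 or 4 (0.051 to 0.076), and Psme1 without any unit except ZsGneg 1 and 2 (0.0548 to 0.077).

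Of 39 interferon response genes 3 were lower and none higher (median -0.40), where 2.04% of all genes were lower. The antiviral membrane proteins Ifitm2 (540 ± 52.8 to 215.6 ± 34.1 CPM, adjusted p = 0.00151) and Ifitm3 (2202 ± 478.6 to 1170 ± 174.2 CPM, adjusted p = 0.0112) and the ISG15 protease Usp18 (609 ± 222.4 to 251.4 ± 71.7 CPM, adjusted p = 0.0212) fell. The WT units were nearer to ZsGpos than to ZsGneg for these genes, with averages of 276.5 CPM of Ifitm2, 841 CPM of Ifitm3 and 318.9 CPM of Usp18. Usp18 lost its call without ZsGpos 1 or 3 or ZsGneg 3 or 4 (0.0572 to 0.0615).

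Genes with the smallest adjusted p outside the lists were chosen after their values were seen. Ubd, a ubiquitin-like protein induced by interferon and TNF (chromosome 17, 37193892 to 37196101), had 3064, 2796, 3066 and 2824 CPM in ZsGpos and 8159, 7718, 7338 and 11384 CPM in ZsGneg (log2 -1.56, SE 0.13, adjusted p = 0.000151). Cd52, a small surface glycoprotein, had 160, 155.4, 277.5 and 122.4 CPM against 1493, 994, 831 and 856 CPM (log2 -2.55, SE 0.27, adjusted p = 0.000331). In WT units Ubd was at 6411 to 7016 CPM and Cd52 at 1010 to 1244 CPM, so for both genes the ZsGpos libraries lay below every WT unit.

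Of 24 genes of mTEC maturation and costimulation 1 passed the test, where 2.66% of all genes did. This was Cd40, the receptor through which T cells stimulate mTEC growth. It had 120.6, 175.8, 141.2 and 154.7 CPM in ZsGpos and 207.6, 240.9, 314.2 and 354.6 CPM in ZsGneg libraries (log2 -0.92, SE 0.22, adjusted p = 0.0421), and it lost its call without any unit except ZsGneg 1 and 2 (0.0592 to 0.099). Aire, the regulator of self-antigen expression, had 211.4, 228.8, 283.9 and 268.1 CPM in ZsGpos and 171.2, 166.1, 100.9 and 134.2 CPM in ZsGneg. These ranges did not overlap, but the log2 fold change of 0.79 had an adjusted p of 0.08. Fezf2, a second regulator of self-antigens, was at 377.2 ± 67 and 456.6 ± 65.6 CPM (adjusted p = 0.481), and the costimulator Cd80 at 26.3 ± 19.4 and 102.2 ± 36.7 CPM with no overlap (adjusted p = 0.0709). Among 19 thymic chemokines the T cell attractant Ccl5 alone was called, lower at 318.1 ± 27.7 against 1392 ± 842 CPM (log2 -2.13, adjusted p = 0.00341, kept without each unit).

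Self-antigens of the gut were lower in 5 of 31 tested members and higher in none, where 2.04% of all genes were lower. Their median log2 fold change was -1.36. A negative value was found for 27 of the 31, where 8644 of all 18931 genes had one. Reg3g, an antibacterial lectin, had 672, 622, 567 and 712 CPM in ZsGpos and 1143, 1202, 1756 and 3852 CPM in ZsGneg (log2 -1.63, SE 0.32, adjusted p = 0.0139). Tff3, a mucosal peptide of goblet cells, had 18.6, 20.8, 18.9 and 13.1 CPM against 181.8, 158.8, 59.9 and 32.5 CPM (log2 -2.60, SE 0.50, adjusted p = 0.0118). The ZsGpos libraries were the low ones for both, and their values varied less than those of ZsGneg. Lgals2, a galectin, fell from 91.8 ± 49.3 to 19 ± 6.45 CPM (adjusted p = 0.00878). Cdx1, an intestinal transcription factor that also stands in the list of developmental regulators, was lower at 59.4 ± 15.5 against 228.04 ± 73.7 CPM (log2 -1.94, adjusted p = 0.00306). Agr2, a disulfide isomerase of mucus cells, had 1 count over the ZsGpos libraries and 731 over the ZsGneg libraries, a count ratio of 631 (95% counting interval 112.9 to 24954). One ZsGneg library had no Agr2 count, so the groups overlapped, and its call (adjusted p = 0.0274) was lost without any ZsGpos or WT unit or ZsGneg 4 (0.0566 to 0.085).

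Other self-antigens gave fewer calls, where 0.623% of all genes were higher and 2.04% lower. Among 29 endocrine and neural antigens Resp18, a protein of endocrine secretory granules, fell from 144.8 ± 14.7 to 29.8 ± 21.7 CPM (adjusted p = 0.0205; 0.0615 without ZsGpos 1) and the neuropeptide Calcb from 1472 ± 745 to 362.5 ± 89.9 CPM (adjusted p = 0.0029). Stmn2, which controls microtubules in neurons (chromosome 3, 8509527 to 8561604), went the other way. It had 111.6, 138.1, 140.4 and 113.3 CPM in ZsGpos, 24.9, 23.1, 3.95 and 5.31 CPM in ZsGneg and 9.14, 9.75 and 9.7 CPM in WT units (log2 3.13, SE 0.57, adjusted p = 0.00917), so the ZsGpos group stood above both others. In the list of liver, airway and gland antigens 2 of 32 were lower. The calcium binder S100g was at 114.3 ± 28.6 against 320.7 ± 155.5 CPM (adjusted p = 0.0191; lost without ZsGpos 1 or 4, 0.0589 to 0.0678). The cystatin Cst9 had 0, 0.152, 0 and 0 CPM in ZsGpos and 16.3, 27.9, 77 and 5.1 CPM in ZsGneg (adjusted p = 0.00502), which is 2 counts against 1597, a ratio of 689 (95% counting interval 190 to 5696). In the list of classical Aire-dependent antigens, 1 of 19 tested was lower, the neutrophil calgranulin S100a8, at 377.6 ± 55.3 against 799 ± 193.9 CPM (adjusted p = 0.00877). The cornified envelope gene Sprr4 had no count in ZsGpos and 717 in ZsGneg, at least 206.3-fold lower against a floor of 3 counts over the group (adjusted p = 0.00996). Calcb, Stmn2, Cst9, S100a8 and Sprr4 kept their calls without each unit.

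Of 23 basal and immature mTEC genes 4 were higher and 1 lower, where 0.623% of all genes were higher and 2.04% lower; the other 18 did not pass the test. A positive value was found for 21 of them (median 0.93). Krt5, the keratin of basal epithelial cells (chromosome 15, 101707069 to 101712905), had 898, 778, 811 and 663 CPM in ZsGpos and 396.8, 370, 278.97 and 188.1 CPM in ZsGneg libraries (log2 1.35, SE 0.22, adjusted p = 0.00539). The WT units, at 134.7, 106.9 and 131.7 CPM, were lower than both groups. Dst, a linker of keratin filaments to hemidesmosomes, had 375.4, 315.9, 363.9 and 384.5 CPM against 60.3, 170.98, 168.6 and 112.5 CPM (log2 1.49, SE 0.28, adjusted p = 0.0112). Krt15, another basal keratin, rose from 27.2 ± 9.4 to 104.7 ± 47.9 CPM (adjusted p = 0.0199; 0.0758 without ZsGpos 3), and Col17a1, a collagen of hemidesmosomes, from 49.7 ± 9.82 to 114.7 ± 29.5 CPM (adjusted p = 0.0461; lost without any unit except ZsGpos 4, 0.0596 to 0.116). Krt14, which pairs with Krt5 in basal filaments, was at 310.7 ± 46.2 and 300.5 ± 73.9 CPM (adjusted p = 0.957), and Trp63, the transcription factor of basal epithelium, at 173.5 ± 28.1 and 150 ± 77.6 CPM (adjusted p = 0.883). The surface antigen Ly6e was lower, at 1105 CPM on average against 1992 (log2 -0.85, SE 0.14, adjusted p = 0.00494). Ccl21a, a chemokine of immature mTECs, stood at 10.7 ± 7.73 and 5.62 ± 2.27 CPM (adjusted p = 0.794). The tuft cell kinase Dclk1 rose from 45.4 ± 19.2 to 133.1 ± 37.9 CPM (adjusted p = 0.0377), the only call among 21 tuft cell genes, and lost its call without ZsGpos 1, 3 or 4, ZsGneg 1, 2 or 4 or WT 1 or 3 (0.0574 to 0.0994).

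Signalling lists held single calls or none, where 0.623% of all genes were higher and 2.04% lower. Wnt4, a Wnt ligand of thymic epithelium (chromosome 4, 137277635 to 137299501), had 27, 57.7, 31.9 and 65.7 CPM in ZsGpos and 2.07, 7.26, 2.87 and 2.94 CPM in ZsGneg (log2 3.59, SE 0.71, adjusted p = 0.0148). It was the 1 call among 39 Wnt genes, of which 35 had a positive value (median 0.89), where 10270 of all 18931 genes had one. The call was lost without ZsGpos 2 or 4 (0.0512 to 0.0609). Hes1, a transcriptional target of Notch, had 124.5, 140.6, 242.6 and 239.3 CPM against 71, 64.8, 40.3 and 54.4 CPM (log2 1.70, SE 0.32, adjusted p = 0.011), the 1 call among 25 Notch genes (median 1.18). No gene of the BMP and TGF-beta list (31 tested) or of the thymus organogenesis list (13 tested) was called. Foxn1, the master regulator of thymic epithelium, was at 74.7 ± 12.7 and 72.9 ± 21.9 CPM (adjusted p = 0.977). Psmb11, whose promoter drives the Cre, was at 0.0851 to 4.17 CPM in ZsGpos and 0 to 0.256 CPM in ZsGneg (adjusted p = 0.265). Cyp26a1, an enzyme that degrades retinoic acid, was named after its values were seen because it passed the test in the small pools as well. It had 145.8, 165.96, 173.1 and 291.3 CPM in ZsGpos and 22.9, 36.3, 72.4 and 42.7 CPM in ZsGneg bulk libraries (log2 2.16, SE 0.38, adjusted p = 0.00793), with no overlap.

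**Figure D3:**
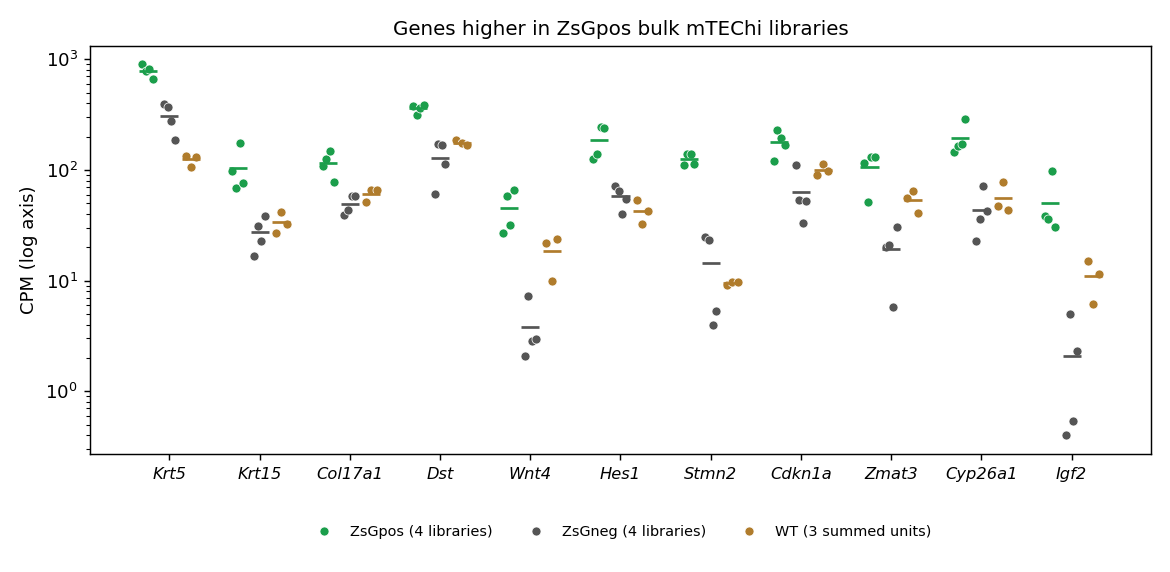
CPM on a log axis of genes that were higher in ZsGpos, in the 4 ZsGpos libraries, 4 ZsGneg libraries and 3 WT units; each point is 1 unit and each bar the group mean. The ZsGpos points lie above all ZsGneg points for each gene, and for Krt5 the ZsGneg points (188.1 to 396.8 CPM) lie above the WT points.

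Calls among developmental regulators that PRC2 is known to silence stand beside shares of 0.623% higher and 2.04% lower over all genes. At these shares lists of 21 and 49 genes would hold few calls. None of 21 tested HOX genes was called (median 0.97), and among 49 other developmental transcription factors Prrx1 was higher and Cdx1 lower (median 1.38, 40 positive). Higher in ZsGpos without overlap were 4 of the 21 and 8 of the 49, against 1029 of all 18931 genes. Lower without overlap were 0 and 1, against 988. Of the listed genes, 21 of 39 and 49 of 64 passed the filter on low counts. A gene can pass it through the group in which it is high, and ZsGpos libraries held counts of more genes on average. The shares of positive and of non-overlapping members therefore do not test these lists. Prrx1, a mesenchymal homeobox factor (chromosome 1, 163245119 to 163315145), had 94.2, 120, 120 and 23.6 CPM in ZsGpos, 1.12, 5.81, 1.7 and 0 CPM in ZsGneg and 0.159 to 2.43 CPM in WT units (log2 5.37, SE 1.25, adjusted p = 0.0357). ZsGpos libraries alone held more than 20 CPM of Prrx1. The call of Prrx1 was lost without ZsGpos 1, 2 or 3, ZsGneg 1 or 3 or WT 1 (0.0513 to 0.0918). The summed fibroblast markers overlapped between the groups, with Dcn as the largest member in each library. Of these markers Col1a1 (log2 1.315), Col3a1 (0.74) and Pdgfra (5.90) had positive values and Dcn (-0.53), Pdgfrb (-0.37) and Lum (-0.81) negative ones. Of 17 tested genes of the fibroblast list 14 had a positive value (median 1.06) and none was called. Whether Prrx1 came from such cells was not tested. The cell cycle inhibitors of the locus that PRC2 represses in many cells were not called: Cdkn2a was at 4.04 ± 2.92 and 0.644 ± 0.981 CPM (adjusted p = 0.564) and Cdkn2b at 49.6 ± 23.8 and 21.7 ± 17 CPM (adjusted p = 0.513).

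Among 25 tested p53 targets 3 were higher and 1 lower (median 0.79), where 0.623% of all genes were higher and 2.04% lower. Cdkn1a, the cell cycle inhibitor p21, averaged 178.2 ± 45.8 CPM in ZsGpos and 62.6 ± 33.5 CPM in ZsGneg (SD, n = 4 each; log2 1.51, SE 0.35, edgeR adjusted p = 0.0359). The groups did not overlap, but ZsGneg 1, at 110.8 CPM, was near the lowest ZsGpos library, and the call held only without ZsGpos 1 or ZsGneg 1, being lost without any other unit (0.0609 to 0.102). Zmat3, an RNA-binding growth suppressor, had 115.6, 51.1, 130.8 and 131.7 CPM against 20.3, 21, 5.73 and 30.4 CPM (log2 2.47, SE 0.49, adjusted p = 0.0151; 0.0504 without ZsGpos 4). Trp53inp1, which promotes apoptosis and autophagy, rose from 87.8 ± 39.5 to 215.3 ± 30.9 CPM (adjusted p = 0.0432; lost without any unit except ZsGneg 1, 0.0549 to 0.098), and the death receptor Fas fell from 410 ± 189.1 to 152.96 ± 40.1 CPM (adjusted p = 0.0205; lost without ZsGpos 3 or 4, 0.0583 to 0.0666). None of 35 cell cycle genes was called (median -0.58), and Mki67, a marker of cycling cells, was at 217.7 ± 64.6 and 197.8 ± 58.3 CPM (adjusted p = 0.891).

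Of 28 immediate early genes 2 were higher and 25 had a positive value (median 1.36). Over all 18931 genes 0.623% were higher, 2.04% lower and 10270 had a positive value. Fos had 413.8, 633, 750 and 907 CPM in ZsGpos and 289.2, 216.3, 222.8 and 306.2 CPM in ZsGneg libraries (log2 1.39, SE 0.28, adjusted p = 0.0155; 0.057 without ZsGpos 4), against 24.3 to 49.6 CPM in WT units. Zfp36, which destabilises inflammatory mRNAs, rose from 55.7 ± 19.7 to 144.1 ± 17.3 CPM (adjusted p = 0.0381; lost without any ZsGpos library, ZsGneg 1 or 3 or WT 1 or 2, 0.0543 to 0.0983). Of 25 heat shock and chaperone genes 2 were higher and 1 lower, with 12 positive and 13 negative values (median -0.09). The near-identical chaperone genes Hspa1a (132.1 ± 30.2 to 503.3 ± 231.3 CPM, adjusted p = 0.0102) and Hspa1b (70.3 ± 26.9 to 357.2 ± 151.5 CPM, adjusted p = 0.00451) rose, with reads that the counting could split between them. Hspa8, the constitutive chaperone, fell from 2587 ± 1364 to 1146 ± 293.3 CPM (adjusted p = 0.0498; lost without any ZsGpos or WT unit or ZsGneg 3 or 4, 0.0521 to 0.136). DESeq2 gave it an adjusted p of 0.053.

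Several lists of other cell types and functions held 1 lower gene each, where 2.04% of all genes were lower: 1 of 12 B cell, 1 of 16 myeloid and dendritic, 1 of 14 microfold, 1 of 28 actin cytoskeleton and 1 of 18 BCL2 family genes. Igkc, an immunoglobulin light chain constant region, fell from 78.9 ± 37.4 to 13.9 ± 9.9 CPM (adjusted p = 0.0264), Fcer1g, the signalling chain of Fc receptors, from 51.7 ± 28.7 to 8.03 ± 6.83 CPM (adjusted p = 0.0481), and the microfold list gene Anxa5 from 939 ± 311.2 to 460 ± 49 CPM (adjusted p = 0.0193). Tmsb4x, which binds actin monomers, was lower at 2077 ± 275.99 against 4881 ± 771 CPM (log2 -1.23, adjusted p = 0.000842) and the survival gene Bcl2a1d fell from 513.7 ± 161.8 to 224.6 ± 44.7 CPM (adjusted p = 0.0147). Of these, Tmsb4x kept its call without each unit. Igkc lost it without ZsGpos 1, 2 or 4, ZsGneg 4 or WT 1 or 2 (0.0501 to 0.0806), Fcer1g without any unit except ZsGpos 3 and ZsGneg 4 (0.0631 to 0.12), Anxa5 without ZsGpos 2 (0.0685) and Bcl2a1d without ZsGpos 2 (0.0508). Of the reference genes, Actb was at 6705 ± 1619 and 10178 ± 2241 CPM (adjusted p = 0.1) and Gapdh at 172.8 ± 16.5 and 158.7 ± 33.3 CPM (adjusted p = 0.882).

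**Figure D4:**
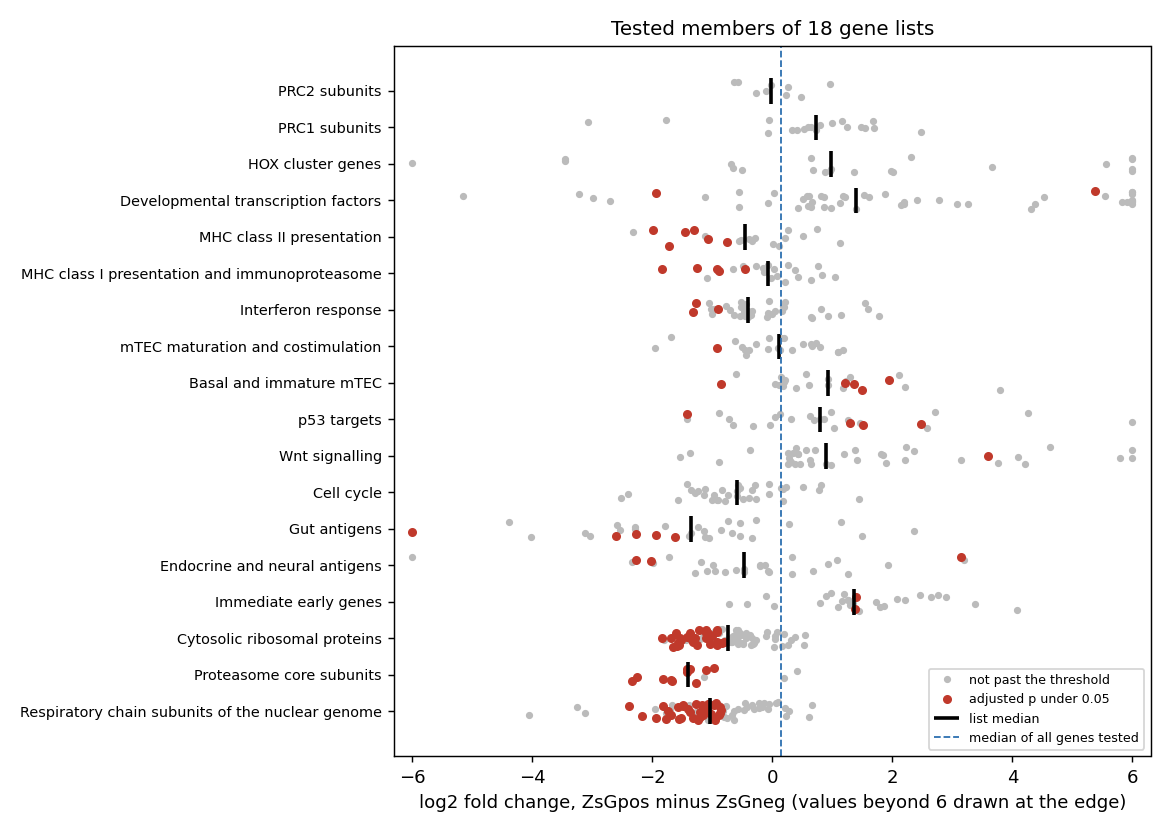
Log2 fold change (ZsGpos minus ZsGneg) of every tested member of the gene lists named on the axis; red points passed an adjusted p of 0.05, black bars are list medians, the dashed line is the median of all genes tested (0.14), and values beyond 6 are drawn at the edge. Red points lie on the left in the housekeeping lists at the bottom. In the basal mTEC list 4 lie on the right and 1, Ly6e, on the left.

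The most frequent calls were in housekeeping complexes, in lists made by gene name after the values were seen. Of 87 tested cytosolic ribosomal protein genes 30 were lower and none higher (median -0.75), where 2.04% of all genes were lower. Rps14, a protein of the small subunit, had 705, 578, 606 and 584 CPM in ZsGpos, 2489, 2017, 2190 and 2113 CPM in ZsGneg and 1051, 1216 and 1367 CPM in WT units (log2 -1.83, SE 0.14, adjusted p = 6.56e-05). The ZsGpos libraries were below and the ZsGneg libraries above all WT units. Rps9 (1579 ± 216.2 to 488.9 ± 39.9 CPM) and Rps19 (3080 ± 250 to 1282 ± 48.5 CPM) fell with an adjusted p of 0.000185 each. Many ribosomal protein genes have processed pseudogenes, which reads can match as well.

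Of 14 proteasome core subunits 11 were lower (median -1.40), as were 3 of 20 regulatory subunits (median -0.70). Psmb6, a catalytic core subunit (chromosome 11, 70525324 to 70527858), had 151.5, 157.1, 68.6 and 183.9 CPM in ZsGpos and 691, 575, 891 and 677 CPM in ZsGneg (log2 -2.34, SE 0.27, adjusted p = 0.000662). The structural core subunits Psma5 (296.2 ± 52.2 to 91.4 ± 19.6 CPM, adjusted p = 0.00134) and Psma7 (619 ± 91.1 to 255.8 ± 40.1 CPM, adjusted p = 0.00192) fell likewise. Of 79 nuclear-encoded respiratory chain subunits 38 were lower and none higher (median -1.04). Ndufc2 of complex I had 224.98, 156.7, 177.6 and 160 CPM against 646, 545, 680 and 590 CPM (log2 -1.77, SE 0.21, adjusted p = 0.000795), Ndufa11 fell from 515.6 ± 64.1 to 145.4 ± 41.2 CPM and the ATP synthase subunit Atp5l from 689 ± 29.1 to 246.6 ± 40 CPM. Of 75 mitochondrial ribosomal protein genes 14 were lower (median -0.79), among them Mrpl38 (461.01 ± 48.7 to 199.1 ± 34.9 CPM, adjusted p = 0.00341). The genes named so far in this paragraph and in the preceding one kept their calls without each of the 11 units. The 3 called regulatory subunits of the proteasome did not. Psmd14 lost its call without ZsGpos 2 (0.0529), and Psmd10 without ZsGpos 2 or 4 or ZsGneg 1 or 4 (0.0512 to 0.0825). Psmc4 lost its call without ZsGpos 2, 3 or 4, ZsGneg 3 or 4 or WT 1 or 3 (0.052 to 0.101).

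Ribosomal RNAs moved in the opposite direction to the ribosomal proteins. The mitochondrial rRNA mt-Rnr1 had 23236, 31585, 47523 and 38225 CPM in ZsGpos and 12336, 12268, 9466 and 8457 CPM in ZsGneg (log2 1.72, SE 0.19, adjusted p = 0.000523), and mt-Rnr2 rose from 30159 ± 3407 to 67625 ± 18309 CPM (adjusted p = 0.0018). Rn18s-rs5, a copy of 18S rRNA (chromosome 17, 39846354 to 39848202), had 25679, 20701, 13210 and 27128 CPM against 5277, 6327, 3036 and 3714 CPM (log2 2.24, SE 0.24, adjusted p = 0.00046). Of 13 mitochondrial mRNAs, in contrast, mt-Cytb (8898 ± 1514 to 4315 ± 744 CPM, adjusted p = 0.002) and mt-Co1 (9176 ± 2162 to 4036 ± 810 CPM, adjusted p = 0.00225) fell and mt-Nd6 rose (275.4 ± 24.9 to 449.4 ± 72.7 CPM, adjusted p = 0.0466; lost without any unit except ZsGpos 1, 0.0548 to 0.122). Genes that were lower had a median span of 6356 bases from start to end in RefSeq, genes that were higher 36638 and all tested genes 20683, with a span known for 93%, 90.7% and 88.5% of them. The part of gene span in the calls was not tested.

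The genes with the largest fold changes, 12 in each direction, were taken among calls with at least 20 CPM in the higher group and no overlap. On the lower side, Cst9 was followed by M1ap, a meiosis gene, with 0.17, 0.0758, 0.0947 and 0 CPM in ZsGpos and 19.8, 31, 22.1 and 23.3 CPM in ZsGneg (log2 -8.03, SE 1.18, adjusted p = 0.00243). Topaz1, a germ cell gene, stood at 0.279 ± 0.447 against 64.8 ± 63.8 CPM, the oocyte gene Omt2b at 0.302 ± 0.336 against 30.9 ± 31.9 CPM and the platelet chemokine Ppbp at 0.897 ± 1.46 against 84 ± 113.7 CPM. Serpinb12, a serine protease inhibitor, had 35.7, 9.09, 34.8 and 22 CPM against 206.1, 130, 276.96 and 102.7 CPM (log2 -2.82, SE 0.43, adjusted p = 0.00333). Topaz1 lost its call without the libraries numbered 04 (0.0631). Cst9, M1ap, Topaz1, Serpinb12 and the Mediator subunit Med10 (158.8 ± 39.8 to 15.3 ± 11.3 CPM) kept their calls without each unit. Others of these 12 genes lost theirs: Omt2b without ZsGpos 1 or 2 or ZsGneg 1 (0.0521 to 0.085), Ppbp without ZsGpos 1 or 3 or ZsGneg 3 (0.0584 to 0.129), the embryonic globin Hba-x (182.6 ± 219.1 to 21.6 ± 6.89 CPM) without any ZsGpos library or ZsGneg 3 (0.0565 to 0.0659), and Ccpg1os (36.4 ± 9.07 to 3.87 ± 2.24 CPM) without ZsGpos 2 or 4, ZsGneg 3 or 4 or any WT unit (0.0512 to 0.0678). The chemokine Ccl1 (73.7 ± 47.6 to 7.42 ± 7.22 CPM) lost its call without any unit except ZsGpos 1 and 2 (0.0527 to 0.114), the lectin Itln1 (53 ± 25.8 to 6.44 ± 6.28 CPM) without any except ZsGpos 1 and ZsGneg 3 (0.0567 to 0.115), and Fcer1g as given above.

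On the higher side several genes had almost no count in ZsGneg. The guidance factor Sema3c had 22.9, 52.4, 2.27 and 14.6 CPM in ZsGpos and 2 counts in all of ZsGneg, a count ratio of 662 (95% counting interval 182.7 to 5469; adjusted p = 0.00813). The small GTPase Rabl3 had 24.5, 3.03, 62.2 and 16.7 CPM and also 2 ZsGneg counts, a ratio of 674 (186.2 to 5575; adjusted p = 0.00746). Single ZsGpos libraries differed by more than 20-fold for both, and the WT units, at 12.2 to 32.5 CPM of Sema3c and 6.7 to 27.8 CPM of Rabl3, were like ZsGpos in level. Pter had 120.7, 13.9, 0.474 and 8.65 CPM and 2 ZsGneg counts (ratio 985, 272.2 to 8139; adjusted p = 0.0304), and Tmem200a 54.4, 9.55, 0.474 and 21.2 CPM and 1 count (ratio 1156, 207.1 to 45717; adjusted p = 0.0297). The neuronal factor Neurod4 stood at 25.2 ± 16.5 against 0.0968 ± 0.194 CPM (adjusted p = 0.0199) and the imprinted growth regulator Ndn at 22.1 ± 6.29 against 0.162 ± 0.323 CPM (adjusted p = 0.0419). Igf2, an imprinted growth factor, had 38.1, 35.9, 97.5 and 30.6 CPM against 0.398, 5.04, 0.542 and 2.3 CPM (log2 4.61, SE 0.95, adjusted p = 0.0185), with WT units at 6.19 to 15.2 CPM between the groups. The acute phase inhibitor Serpina3n (65.4 ± 34 against 1.43 ± 2.25 CPM), the inositol phosphatase Ocrl (26.4 ± 20.1 against 0.306 ± 0.327 CPM), Pitpnm2 (23.8 ± 9.7 against 0.205 ± 0.249 CPM) and AF529169 (21.5 ± 6.8 against 0.242 ± 0.284 CPM) complete the 12 with Prrx1.

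Of these higher genes Sema3c and Rabl3 kept their calls without each unit. Igf2 lost its call without ZsGpos 3 (0.0747), Neurod4 without ZsGpos 2 (0.0828), Ocrl without ZsGpos 3 or ZsGneg 4 (0.0537 to 0.069), Pter without any ZsGneg library (0.0565 to 0.0746; it did not pass the filter in the fits without ZsGpos 1, 2 or 4, so it was tested in 8 of the 11) and Tmem200a without any ZsGneg library or ZsGpos 1, 2 or 4 (0.0506 to 0.0882). Ndn lost it without any unit except ZsGneg 4 (0.0629 to 0.0874), Serpina3n without any except ZsGneg 2 and WT 1 (0.0506 to 0.101), AF529169 without any except ZsGneg 3 (0.0515 to 0.0868), and Pitpnm2 without any of the 11 units (0.0515 to 0.0965).

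Single mTEChi cells of the same strain and gates gave counts that the bulk comparison had not used. Cells with at least 50000 gene counts and 1000 genes were summed per plate on 3 plates; another plate, on which 2 ZsGpos cells passed, was left out after the cells were counted. With no animals named for cells or plates there is no test, and the intervals are exact 95% Poisson intervals that cover counting error only. On 1 of the 3 summed plates the groups differed in sex-linked genes. There Xist was at 0.977 CPM in ZsGpos and 265.85 CPM in ZsGneg cells, and Ddx3y at 37.4 and 0 CPM. On the other summed plates Xist was at 0.405 to 1.9 CPM and Ddx3y at 49.5 to 70.2 CPM across both groups. How far this difference enters the values of that plate, and the sums over plates, was not tested. Of the genes that were higher in bulk, 66.9% were also higher in the summed ZsGpos cells, where 48.6% of all tested genes with a count were. Of those that were lower in bulk, 75.9% were lower in single ZsGpos cells, where 51.4% of all were.

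Some basal and signalling genes were higher in single ZsGpos cells on all 3 plates. Krt15 was at 110 CPM (107.6 to 112.5) in ZsGpos and 39 CPM (37.6 to 40.3) in ZsGneg cells, Stmn2 at 116.5 (113.99 to 118.99) and 49.8 (48.3 to 51.4), Cyp26a1 at 740 (734 to 747) and 266.5 (262.98 to 270), Wnt4 at 31.8 (30.5 to 33.1) and 14.1 (13.3 to 15), Hes1 at 23.7 (22.6 to 24.8) and 12.6 (11.8 to 13.4), and Cdkn1a at 310 (305.6 to 313.8) and 168.6 (165.8 to 171.4). Igf2, Prrx1, Serpina3n and Ndn were higher on all 3 plates too, at 11.3, 19.8, 60.6 and 42.1 CPM against 1.11, 1.66, 1.41 and 8.85 CPM. Krt5 was higher on 2 of 3 plates (997 against 566 CPM in sum) and Col17a1 on 1 (52.3 against 49.2 CPM). Of the other largest changes in the higher direction, Pter was higher on all 3 plates (11.3 against 6.81 CPM), Tmem200a (6.01 against 1.09), AF529169 (9.12 against 4.34), Pitpnm2 (5.65 against 4.89) and Sema3c (5.15 against 4.8) on 2, and Rabl3 (18.2 against 15.5), Ocrl (10.01 against 11) and Neurod4 (2.24 against 4.68) on 1. Of the 12 in the lower direction, Fcer1g was lower on all 3 plates (7.93 against 19.97 CPM). Cst9 (2.69 against 18.8), Serpinb12 (28.8 against 135.2), Topaz1 (1.14 against 4.4), Itln1 (25.6 against 55.1), M1ap (4.8 against 6.49), Ccpg1os (7.92 against 8.07), Med10 (21.6 against 21.3) and Hba-x (12.4 against 5.46) were lower on 2, though the last 2 were higher in sum. Ccl1 (12.9 against 20.2), Omt2b (4.14 against 4.58) and Ppbp (13.1 against 3.57) were lower on 1. Agr2, almost without counts in ZsGpos bulk libraries, was at 1.66 CPM in ZsGpos and 0.0606 CPM in ZsGneg single cells. Cdx1 (171.99 against 287.7 CPM), Fas (198.04 against 274.1 CPM), Ubd (3200 against 4393 CPM), Ifi30 (466.2 against 1364 CPM), Ctss (512.1 against 612 CPM) and Cd40 (347.5 against 462.1 CPM) were lower on all 3 plates.

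For other genes the bulk difference was smaller or turned in single cells. H2-Aa was at 11392 CPM (11367 to 11416) in ZsGpos and 13054 (13029 to 13078) in ZsGneg cells and lower on 2 of 3 plates, Cd74 at 18439 and 19073 CPM, and H2-DMa at 420 (414.8 to 424.3) and 398.5 (394.2 to 402.8). Aire was lower in ZsGpos cells on all 3 plates, at 881 CPM (874 to 888) against 1141 (1134 to 1148), the opposite of its bulk values. Tff3 was higher on all 3, at 125.9 against 50.3 CPM, and so were Resp18 (72.6 against 47.6 CPM) and Ly6e (1757 against 1433 CPM). Ifitm2 (343.05 against 284.04 CPM), Ifitm3 (1929 against 1709) and B2m (19998 against 18581), lower in bulk, were higher in single ZsGpos cells on 2 plates and in sum. Usp18 (731.8 against 572.6 CPM), Reg3g (1480 against 1204) and S100a8 (438.7 against 409.9), also lower in bulk, were higher in sum but on 1 plate only. Housekeeping genes differed less than in bulk libraries. Rps14 was at 523.8 (518.6 to 529.1) and 581 CPM (575 to 586), Psmb6 at 347.3 and 386.1, Rn18s-rs5 at 35440 and 34175, and mt-Rnr1 at 1176 and 1316 CPM. Ndufc2 was lower on all 3 plates (193.2 against 244.9 CPM), and Ndufa11 (138.2 against 194.9) and Mrpl38 (174.3 against 234.5) on 2. The proteasome subunit Psmd10 (120.1 against 95.5) and mt-Cytb (9331 against 8744), both lower in bulk, were higher in sum. The chaperones Hspa1a (179.04 against 302.2 CPM) and the factor Fos (263.7 against 290 CPM) were lower in sum in ZsGpos cells.

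**Figure D5:**
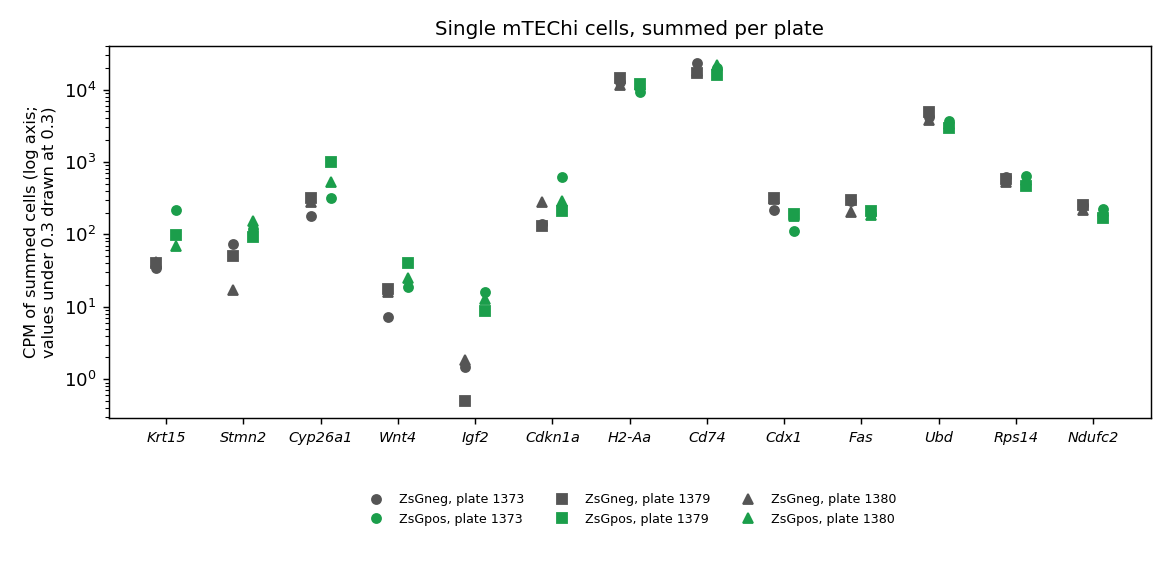
CPM on a log axis of genes in single mTEChi cells, summed per group and plate; grey marks are ZsGneg, green marks ZsGpos, and the shape gives the plate. For Krt15, Stmn2, Cyp26a1, Wnt4, Igf2 and Cdkn1a the green mark is above the grey mark of the same plate on all 3 plates, and for H2-Aa, Cd74 and Rps14 the marks of the groups mix.

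Small pools of 100 cells on 1 plate, with 3 wells of ZsGpos, ZsGneg and WT each, were shallow, at 10332 to 180374 gene counts. Of 731 genes tested 27 were called (3.69%), 16 higher and 11 lower in ZsGpos. The mitochondrial share was 8.94% to 22.8% in the ZsGpos wells and 4.73% to 7.82% in the ZsGneg wells. Of the bulk calls tested there, 15 of 17 higher genes had the same sign, and 53.3% of the lower genes did, where 55% of all 729 genes tested in both had the same sign. Cyp26a1 (log2 4.28, adjusted p = 0.00775) and mt-Rnr1 (2.55, adjusted p = 0.0233) were higher in both data sets, and Fcer1g (-3.66, adjusted p = 0.00581), Cd52 (-1.65, adjusted p = 0.0259) and Tff3 (-5.81, adjusted p = 0.0259) lower. Called in both with opposite signs were mt-Co1 (1.85 in the pools, -1.18 in bulk) and Capza2, an actin capping subunit (2.61 and -1.04). Class II genes showed no call in the pools: H2-Aa had a log2 fold change of 0.11 (adjusted p = 0.915) and Cd74 of 0.14 (adjusted p = 0.904). No gene was called without the ZsGneg well A2 (12.2% of 854 had an unadjusted p under 0.05), and 9 were called with the 6 wells of the 2 groups alone.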

How the data were processed

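RNA of about 1000 sorted cells per library was measured in 4 ZsGpos, 4 ZsGneg and 9 WT mTEChi bulk libraries. Per the submitters' processing notes the tools were FastQC, Trimmomatic, HISAT 0.1.6, BWA 0.5.9, HTSeq and MACS2, with build mm10; no source used here gives their roles, their order or the strand setting. The authors deposited whole-number read counts per gene in 1 table of 45317 gene rows, 92 spike-in rows and 5 rows of unassigned reads, which were left out of library sizes. Without strand, overlapping and antisense genes cannot be told apart, and since amplified reads carry no molecular identifiers, counting intervals and floors cover counting error only. Whether bulk columns hold 1 or both sequencing runs is not known.

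The WT libraries were summed to 3 units by title number. All 3 groups entered 1 fit (filterByExpr, TMM, quasi-likelihood test of edgeR 4.0.16, Benjamini-Hochberg at 0.05, R 4.3.3). CPM use TMM-scaled library sizes, SE is the log2 fold change over the root of the test's F, and SD is between libraries. The p-values measure only the spread between these samples. On simulated data with changes set in genes of at least 20 CPM, the bulk fit called 4% of 2-fold increases and 2% of 2-fold decreases. It called 48% of 4-fold increases and 20% of 4-fold decreases, with 1 false call. A gene that was not called can thus have changed by such amounts. Small pools were fitted in the same way, and single cells of 3 of the 4 planned plates were summed without a test. Named genes are the 12 largest changes each way (at least 20 CPM, no overlap), members of 38 lists past the threshold, and 17 fixed genes; 7 lists by gene name and 11 further genes were added after values were seen. Members, lists and rules were chosen with earlier results of these data known. Coordinates and promoters come from RefSeq (GRCm38.p6), the assembly that mm10 stands for. DESeq2 1.42.0, other scaling, filters, covariates, a replicate block and leaving out each unit were tried as alternatives. The repeat-run and ChIP samples and the columns of other groups were not analysed here.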

Additional observations from a re-analysis of the deposited data

Results flagged for a closer look

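Among the groups of 4 libraries of the named genes, 28 held 1 library whose gap to its nearest neighbour exceeded Dixon's critical value for 4 values. Chance flags about 1 in 20 groups. Many of the values are small counts: Cst9 at 0.152 CPM in ZsGpos 2, Topaz1 at 0.947 CPM in ZsGpos 3, Agr2 at 0.0947 CPM in ZsGpos 3, Ndn at 0.646 CPM and Sema3c at 0.1436 CPM in ZsGneg 4, and Neurod4 at 0.387 CPM, Rabl3 and Pter at 0.155 CPM each and Tmem200a at 0.0775 CPM in ZsGneg 3. Serpina3n stood at 4.78 CPM and Wnt4 at 7.26 CPM in ZsGneg 2, and Ppbp at 3.07 CPM in ZsGpos 4.

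Single libraries stood high for Ppbp (253.9 CPM), Hba-x (509.9 CPM) and Dclk1 (74.1 CPM) in ZsGneg 3, for Ccl1 (145.02 CPM), Cd80 (157.1 CPM) and Actb (13512 CPM) in ZsGneg 4, for Tmsb4x (6026 CPM) in ZsGneg 1, for Igf2 (97.5 CPM) in ZsGpos 3 and for Pter (120.7 CPM) in ZsGpos 1. Single libraries stood low for Ezh2 (33.4 CPM) in ZsGneg 1, Trp63 (33.7 CPM) in ZsGneg 4, Rps9 (1256 CPM) in ZsGneg 2, Mrpl42 (89.3 CPM) in ZsGpos 4 and Ciita (96.4 CPM) in ZsGpos 3. Xist stood high in both libraries numbered 04, at 643.9 CPM in ZsGpos and 264.2 CPM in ZsGneg.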

How the results depend on the processing

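Of 18931 genes 2.66% were called. DESeq2 called 6.78% of 34551 genes and edgeR without a filter on low counts 2.42% of the same number, 2344 and 837 genes; without the libraries numbered 04 the share was 1.2%, with the share of reads in no gene as a covariate 0% (826 genes at an unadjusted p under 0.05) and with the mitochondrial share 0.00528%. Leaving out 1 unit gave 1.65% (without ZsGpos 4) to 2.73%; the lowest counts came without ZsGpos 2 (1.75%) and ZsGpos 4. A replicate block on the 8 libraries called 0.9997% of 14404 genes; deviations of same-numbered libraries correlated at -0.0057 to 0.03, all under 0.1, so the numbers were not taken as pairs, although both libraries numbered 04 share their levels of Xist and Ddx3y. RLE scaling, a filter of 5 CPM, the 8 libraries alone, single WT libraries and leaving out mitochondrial genes kept the count within 1.5 times.

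In the small pools no filter gave 0.336% of 14904 genes (50 genes), the 6 wells alone 1.44%, and leaving out 1 well 0% (without ZsGneg A2) to 4.38%; it was 1.03% without ZsGneg A3 and 1.96% without ZsGpos G2. Of 97 named called genes, 72 had the bulk direction in single cells, and 68 to 74 under the alternatives.

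Signs of the log2 fold change turned as follows; the cause was not tested. With the share of reads in no gene as covariate: Zfp36 -0.23, Eed 0.31, Ezh1 -1.70, Foxn1 -0.0197, Psmb11 -1.02 and Mki67 -0.45. With the mitochondrial share: Ezh2 0.37, Foxn1 -0.17, Trp63 -0.17 and Gapdh -0.0924. Without the libraries numbered 04: Ezh2 0.0239, Foxn1 -0.25, Trp63 -0.16, H2-Ab1 -0.0634 and Krt14 -0.000891. With the replicate block: Ezh2 0.0103 and H2-Ab1 -0.000791. Ezh2 was at 0.0078 in DESeq2 and 0.0056 with RLE scaling. Without single units the values ran from -0.15 to 0.68 for Ezh1, -0.24 to 0.10 for Ezh2, -0.12 to 0.22 for Foxn1, -0.0069 to 0.34 for Mki67, -0.12 to 0.36 for Trp63, -0.051 to 0.0723 for H2-Ab1, -0.0814 to 0.51 for Ciita and -0.0613 to 0.18 for Krt14. Zfp36 alone of these was called.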
